A study of Homo sapiens with 12 samples.

Results

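The 77 genes described here encode the proteins of the cytosolic ribosome, 46 of the large subunit and 31 of the small subunit. They were taken from a count table of 55782 gene symbols by name (RPL and RPS followed by a number, with the suffix A or X where there is one, RPLP0 to RPLP2 and RPSA) and by a mean of at least 100 counts over 12 libraries. All 77 names that fit passed that minimum, with RPL17 lowest at a mean of 3121 counts, and all 77 passed the filter on low counts, so none was left out. Apart from that minimum, no measured value entered this rule, but earlier results of these data were known when the genes were chosen.

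In this study 2 human lines were grown together. Jurkat, a T cell leukaemia line made to carry the inhibitory receptors LAG3 and PD1, was incubated with antibodies and then mixed with Raji, a Burkitt lymphoma B cell line made to carry PDL1, the ligand of PD1. All groups shared this pair of lines, the loading of the Raji cells with SED at 100 ng/ml and 24 hours of co-culture. The 4 arms were isotype with isotype, anti-LAG3 (MK4280) with isotype, anti-PD1 (MK3475) with isotype, and anti-PD1 with anti-LAG3, here called the combination. In each arm the 2 antibodies were given at 1, 0.1 or 0.01 µg/ml each, and each condition has 1 library, made from cells pooled over several wells. RNA of both lines was read together, so a change in one line, a change in the other and a change in their balance cannot be told apart, and fewer cells of a line cannot be told apart from less RNA per cell. Nothing in the labels says that the libraries of an arm came from separate cultures, so p-values reflect only how these libraries vary, and that variation may be technical.

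Ribosomal proteins are made in matched amounts and assembled with ribosomal RNA in the nucleolus. Their mRNAs carry at their start a cytosine followed by a run of pyrimidines, the terminal oligopyrimidine (TOP) sequence, through which mTOR and LARP1 control their translation. Because they are short, abundant and regulated together, they are often read as a measure of the capacity for growth, which rises when T cells are activated.

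The start sites show the shared design of these genes. RefSeq start regions (GRCh38.p14, 250 bases before and 50 after the start) were at hand for 62 of the 77 genes, matched by symbol. A cytosine at the first base with at least 4 pyrimidines after it, read on the strand of the gene, was found in 46 of the 62 (74.2%), 28 of the large and 18 of the small subunit, and in 5.14% of all 27305 genes in the same table. The motif CCGGAAG, the core bound by ETS factors, searched on both strands of the 300 bases, was in 35.5% of the 62 and in 12.2% of all genes. The letters AAGATGG, the core of the YY1 motif, were in 12.9% against 7.11%, and TATAAA was in 8.06% against 14.0%. A gene was counted where any of its starts in the table held the feature, and where a gene has several starts, one with the run is shown if there is one. The following windows run from 40 bases before the start to 10 bases from it, on the gene's strand, with the pyrimidine run that holds the first base in capitals. RPL36A, RPS24 and RPS27 are shown because they were high in the libraries that stood apart from the rest, RPS27A, RPL34 and RPS12 because they were low there, RPS15, RPS21 and RPLP0 because they were among the genes that rose with anti-LAG3, and RPL6 because it varied least.
RPL36A (chrX:101390971-101391020, plus strand): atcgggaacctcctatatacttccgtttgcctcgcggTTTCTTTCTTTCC
RPS24 (chr10:78033823-78033872, plus strand): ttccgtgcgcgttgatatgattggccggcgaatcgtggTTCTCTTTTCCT
RPS27 (chr1:153990722-153990771, plus strand): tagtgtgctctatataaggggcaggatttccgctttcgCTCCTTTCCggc
RPS27A (chr2:55232648-55232697, plus strand): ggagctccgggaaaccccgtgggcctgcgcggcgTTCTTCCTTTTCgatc
RPL34 (chr4:108620536-108620585, plus strand): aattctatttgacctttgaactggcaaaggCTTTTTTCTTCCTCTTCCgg
RPS12 (chr6:132814529-132814578, plus strand): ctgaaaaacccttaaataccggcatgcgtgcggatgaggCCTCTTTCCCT
RPS15 (chr19:1438356-1438405, plus strand): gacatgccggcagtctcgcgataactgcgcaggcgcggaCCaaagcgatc
RPS21 (chr20:62387063-62387112, plus strand): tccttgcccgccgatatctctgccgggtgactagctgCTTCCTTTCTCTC
RPLP0 (chr12:120201102-120201151, minus strand): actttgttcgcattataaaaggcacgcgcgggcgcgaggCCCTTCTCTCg
RPL6 (chr12:112411433-112411482, minus strand): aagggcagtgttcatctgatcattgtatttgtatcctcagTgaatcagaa
All 3 genes shown that were high in those libraries and all 3 that were low there begin with such a run. In this table RPS15 has a cytosine at its start without the run. RPL6 has a T at the start shown, which is 1 of its 2 entries and lies inside the annotated span of the gene. Whether that is the main start of RPL6 was not tested.

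Depth ran from 23593973 to 36581754 counts per library. Levels are given as CPM, counts put on a common library size by TMM scaling (edgeR's trimmed mean of M values). All 24 T cell markers and all 28 B cell markers of a fixed list had counts in every library. The balance of the lines, taken as average log2 CPM over T markers less the average over B markers, stood at -1.82 ± 0.052 (SD, n = 3) with anti-LAG3, from -1.88 to -1.79, and at -2.07 ± 0.050 with isotype, from -2.12 to -2.03. It was -1.99 ± 0.082 with anti-PD1 and -1.99 ± 0.060 with the combination. Log2 differences are those of edgeR's model with their standard error after ±.

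Before any comparison of arms, 2 libraries stood apart in the ribosomal protein genes. In the isotype library at 1 µg/ml and in the combination library at 0.01 µg/ml, the members' deviations from their own means had an SD of 0.130 and 0.105 on the log2 scale. In the other 10 libraries that SD lay between 0.028 and 0.056. The same genes were high and low in both. RPL36A deviated by 0.39 and 0.25, RPL37, a zinc-binding protein of the large subunit, by 0.36 and 0.23, and RPS24, a small subunit protein mutated in some families with Diamond-Blackfan anaemia, by 0.35 and 0.25. RPL34 deviated by -0.23 and -0.20, RPS12 by -0.19 and -0.23, and RPS27A, which is made as a fusion with ubiquitin, by -0.18 and -0.19. Across the 77 genes the deviations of these 2 libraries had a Pearson correlation of 0.97, the highest of any pair. Over the other genes the pair was not the highest, but it was among the highest. Its correlation was 0.76 across 1791 genes of like abundance, where only the isotype libraries at 0.1 and 0.01 µg/ml had more (0.88). Across all 15458 other genes it was 0.156. These are correlations across genes, which share a mean over the same 12 libraries and are not independent. The treatment labels give these libraries nothing in common beyond what all 12 share, but the 2 stand next to each other in the deposited order of samples. What sets them apart was not tested. Whether they share a batch or carry a wrong label was not tested either, and a wrong label would change what the arm means and dose slopes stand for. They lie in different arms and at opposite ends of the dose range, so the counts of called members in each comparison are given also without both. The 2 libraries were picked by the members' own values. The members' median deviation was 0.050 in the isotype library at 1 µg/ml and -0.10 and -0.12 in those at 0.1 and 0.01 µg/ml. Leaving it out therefore raises most differences from isotype, and a larger count or clearer separation without both libraries adds no separate support.

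**Figure D1:**
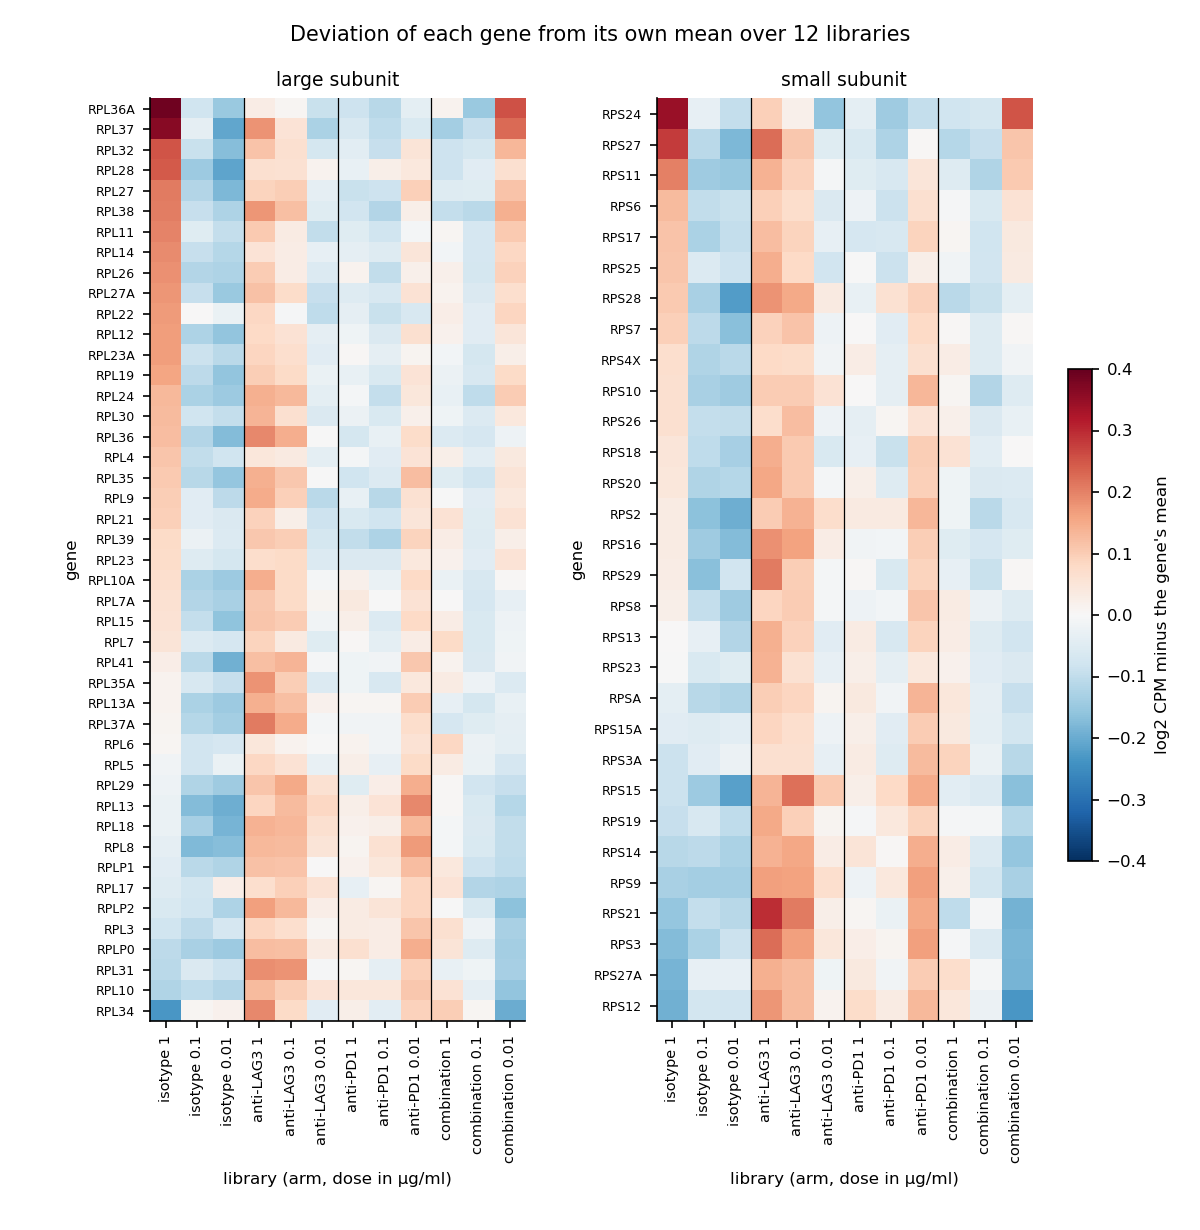
Colour gives each gene's log2 CPM minus its own mean over the 12 libraries (red above, blue below), with genes in rows by subunit and in the order of the isotype library at 1 µg/ml, and libraries in columns by arm and dose. The isotype column at 1 µg/ml and the combination column at 0.01 µg/ml share a pattern of high and low genes, and the anti-LAG3 columns at 1 and 0.1 µg/ml are above the mean in 77 and 76 of the 77 members, a few of which are not drawn.

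**Figure D2:**
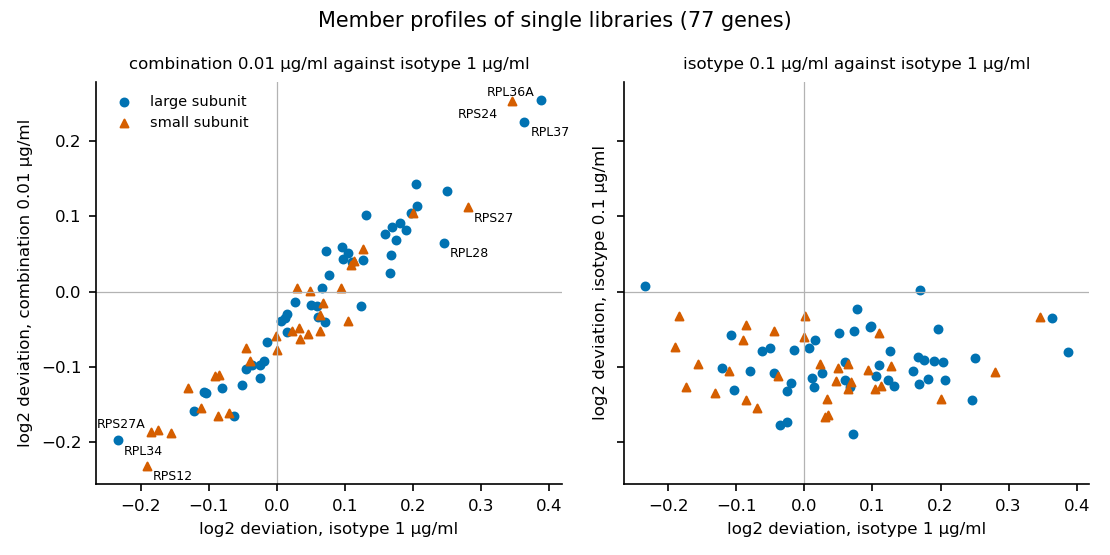
Each point is 1 of the 77 genes, with its log2 deviation in the isotype library at 1 µg/ml on the x axis and, on the y axis, in the combination library at 0.01 µg/ml (left) or the isotype library at 0.1 µg/ml (right). The left points fall along a line (r = 0.97) with RPL36A, RPL37 and RPS24 at the top and RPL34 and RPS12 at the bottom, and the right points do not (r = 0.036).

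The summed counts of the members took 9.226 to 10.75% of a library. In the isotype arm the share was 9.973, 9.362 and 9.226% of all counts at 1, 0.1 and 0.01 µg/ml. In the anti-LAG3 arm it was 10.75, 10.55 and 9.957%, and in the anti-PD1 arm 9.903, 9.827 and 10.44%. The combination gave 9.853, 9.563 and 9.729%. The anti-LAG3 libraries at 1 and 0.1 µg/ml and the anti-PD1 library at 0.01 µg/ml were the highest of the 12, and the isotype libraries at 0.1 and 0.01 µg/ml the lowest. Arm means were 9.52 ± 0.40% (SD, n = 3) for isotype, 10.42 ± 0.41% for anti-LAG3, 10.06 ± 0.33% for anti-PD1 and 9.72 ± 0.15% for the combination, and the isotype library at 1 µg/ml lay within the range of the anti-LAG3 arm. With the 2 libraries that stood apart left out, the isotype arm ran from 9.226 to 9.362% and the combination from 9.563 to 9.853%, both below every anti-LAG3 library, and the isotype arm also below every anti-PD1 library.

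Both subunits had the same order of arm means. The large subunit genes held 5.65 ± 0.28% (SD, n = 3) of counts in the isotype arm, 6.13 ± 0.23% with anti-LAG3, 5.94 ± 0.18% with anti-PD1 and 5.77 ± 0.10% with the combination. For the small subunit genes these values were 3.87 ± 0.12, 4.29 ± 0.19, 4.12 ± 0.16 and 3.95 ± 0.06%. The ratio of large to small subunit counts was 1.491 and 1.484 in the libraries that stood apart and between 1.421 and 1.454 in the other 10. A sum over the genes was not tested. Genes encoded by the mitochondrion, which took 2.49 to 4.13% of counts, were lowest in the anti-LAG3 library at 1 µg/ml and highest in the isotype library at 1 µg/ml. With them left out of the total, the arm means were 9.90% for isotype, 10.73% for anti-LAG3, 10.39% for anti-PD1 and 10.09% for the combination.

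**Figure D3:**
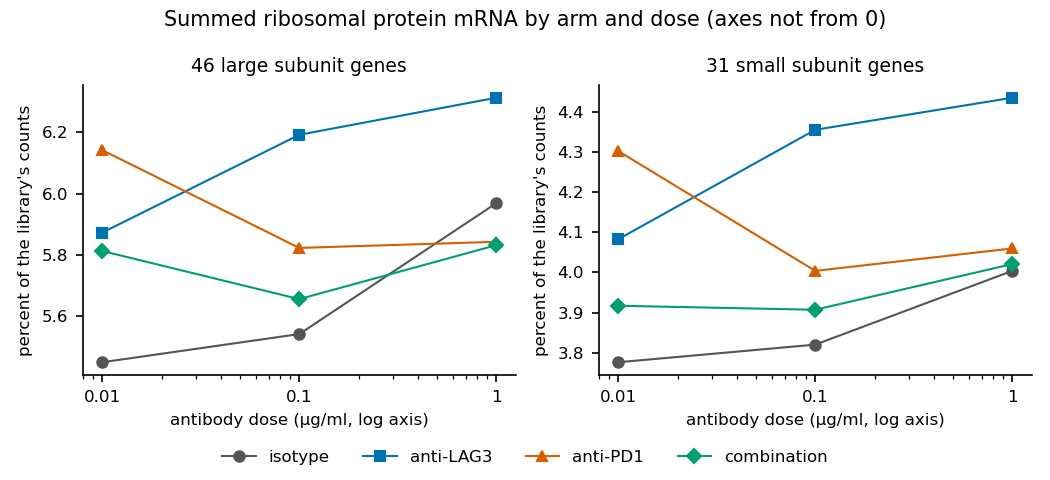
The y axes give the summed counts of the large (left) and small (right) subunit genes as percent of the library's counts, against antibody dose on a log axis, 1 library per point and 1 line per arm. The anti-LAG3 line lies above isotype at each dose, while the anti-PD1 line is highest at 0.01 µg/ml.

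Per length, the members differed widely from one another. By the gene lengths deposited with the counts, the highest mean levels over the 12 libraries were those of RPS12 (5141 ± 477 TPM, SD), RPL13A (5026 ± 308 TPM), RPL8 (4846 ± 387 TPM) and RPS18 (4389 ± 248 TPM). The lowest were RPS29 (131 ± 8.93 TPM), RPL17 (157 ± 9.18 TPM), RPL36A (164 ± 16.9 TPM) and RPL37 (281 ± 31.1 TPM). The deposited lengths were 1.22 to 14.5 times the median transcript length in GENCODE v29, and with transcript lengths the order changed (rank correlation 0.669 over the 77 genes). RPS18 (6949 ± 318 TPM) and RPS16 (5414 ± 335 TPM) then led, RPL8 (5374 ± 365 TPM) and RPL13A (5237 ± 254 TPM) stayed in the first 4, and RPL17 (267 ± 13.5 TPM) and RPL36A (473 ± 51 TPM) stayed in the last 4. RPL17, RPL36A and RPS10 also have a read-through gene of their own in the table, and 1120 rows named as ribosomal protein pseudogenes held counts equal to 1.09% of those of the members, so counts near such copies are uncertain.

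Most members were steady. The SD of log2 CPM over all 12 libraries was smallest in RPL6 (0.048), RPL5 (0.054), RPL7 (0.056) and RPS15A (0.060), and largest in RPL37 (0.17), RPL36A (0.16), RPS24 (0.16) and RPS21 (0.15). The first 3 of the variable genes were the most extreme of the libraries that stood apart, and RPS21 was highest in the anti-LAG3 libraries at 1 and 0.1 µg/ml.

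With anti-LAG3, 24 of the 77 genes rose against isotype and none fell (edgeR's quasi-likelihood test, adjusted p under 0.05 over 15535 genes). They were 12 of the 46 large subunit genes and 12 of the 31 small subunit genes. Of all genes tested, 4.88% rose and 5.16% fell. The median difference was 0.12 on the log2 scale over the members, 0.096 for the large and 0.15 for the small subunit, and -0.0015 over all genes. Of the 77, 72 had a difference above 0. The 3 anti-LAG3 libraries lay above all 3 isotype libraries in 25 of the 77 genes (13 large, 12 small), against 14.7% of all genes, and below them in none, against 14.2%. Against the 2 isotype libraries left when those that stood apart are dropped, it was 62 above, with 23.6% of all genes.

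The small subunit genes led. RPS15, which lies in the head of the small subunit near the decoding site, had 948, 1006 and 928.5 CPM with anti-LAG3 at 1, 0.1 and 0.01 µg/ml and 812.5, 781 and 741.5 CPM with isotype. All 3 anti-LAG3 libraries lay above all isotype libraries, a log2 difference of 0.30 ± 0.048, adjusted p = 0.000776. RPS21 had 1093, 1028 and 905 CPM against 799, 833 and 824 CPM, with the anti-LAG3 library at 1 µg/ml highest of the 12 (0.30 ± 0.066, adjusted p = 0.0105). RPS3, which lines the channel where mRNA enters, had 2719, 2609 and 2407 CPM against 2065, 2135 and 2194 CPM, again without overlap (0.27 ± 0.056, adjusted p = 0.00445). RPS2, a neighbour of RPS3 at the entry channel, rose by 0.21 ± 0.052, adjusted p = 0.0122, RPSA, also known as the laminin receptor, by 0.16 ± 0.048, adjusted p = 0.0384, and RPS19, the gene most often mutated in Diamond-Blackfan anaemia, by 0.17 ± 0.046, adjusted p = 0.02. RPS9, RPS12, RPS14, RPS16 and RPS29 were also among the 12. RPS6, the substrate of S6 kinase, had 2975, 2922 and 2674 CPM against 3041, 2600.0 and 2617 CPM, which overlap, and was not called (0.056 ± 0.056, adjusted p = 0.588). RPS27A was not called either (0.17 ± 0.063, adjusted p = 0.109), although its 3 anti-LAG3 libraries lay above all isotype libraries, with the isotype library at 1 µg/ml the lowest of them.

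In the large subunit the 3 proteins of the stalk that recruits elongation factors rose together. RPLP0, the base of the stalk, had 3007, 3001 and 2827 CPM with anti-LAG3 and 2569.6, 2521 and 2496 CPM with isotype, without overlap (0.22 ± 0.049, adjusted p = 0.0066). Its partners RPLP1 (0.17 ± 0.048, adjusted p = 0.0262) and RPLP2 (0.19 ± 0.045, adjusted p = 0.00791) rose by like amounts. The largest called differences were those of RPL8, a protein near the peptidyl transferase centre (0.23 ± 0.051, adjusted p = 0.0067), RPL13 (0.23 ± 0.053, adjusted p = 0.00841), RPL18 (0.22 ± 0.047, adjusted p = 0.00462) and RPLP0. RPL10, which joins the subunit late in its maturation, rose by 0.21 ± 0.048, adjusted p = 0.00845, and RPL41, the smallest ribosomal protein, by 0.17 ± 0.052, adjusted p = 0.0358. RPL13A, RPL29, RPL31 and RPL37A complete the 12. RPL3, close to the peptidyl transferase centre, differed by 0.14 ± 0.049, adjusted p = 0.0728, and RPL4, which lines the exit tunnel, by 0.036 ± 0.050, adjusted p = 0.717, neither called. RPL5 and RPL11, which carry 5S RNA and can bind MDM2, differed by 0.077 ± 0.045, adjusted p = 0.312 and -0.0063 ± 0.061, adjusted p = 0.967. RPL22, a protein needed for the development of T cells in mice, differed by -0.057 ± 0.048, adjusted p = 0.512, with 928, 874 and 816 CPM against 986, 877 and 861 CPM. RPS24 and RPL36A had the lowest differences (-0.091 and -0.082), and their isotype library at 1 µg/ml was above all 3 anti-LAG3 libraries.

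**Figure D4:**
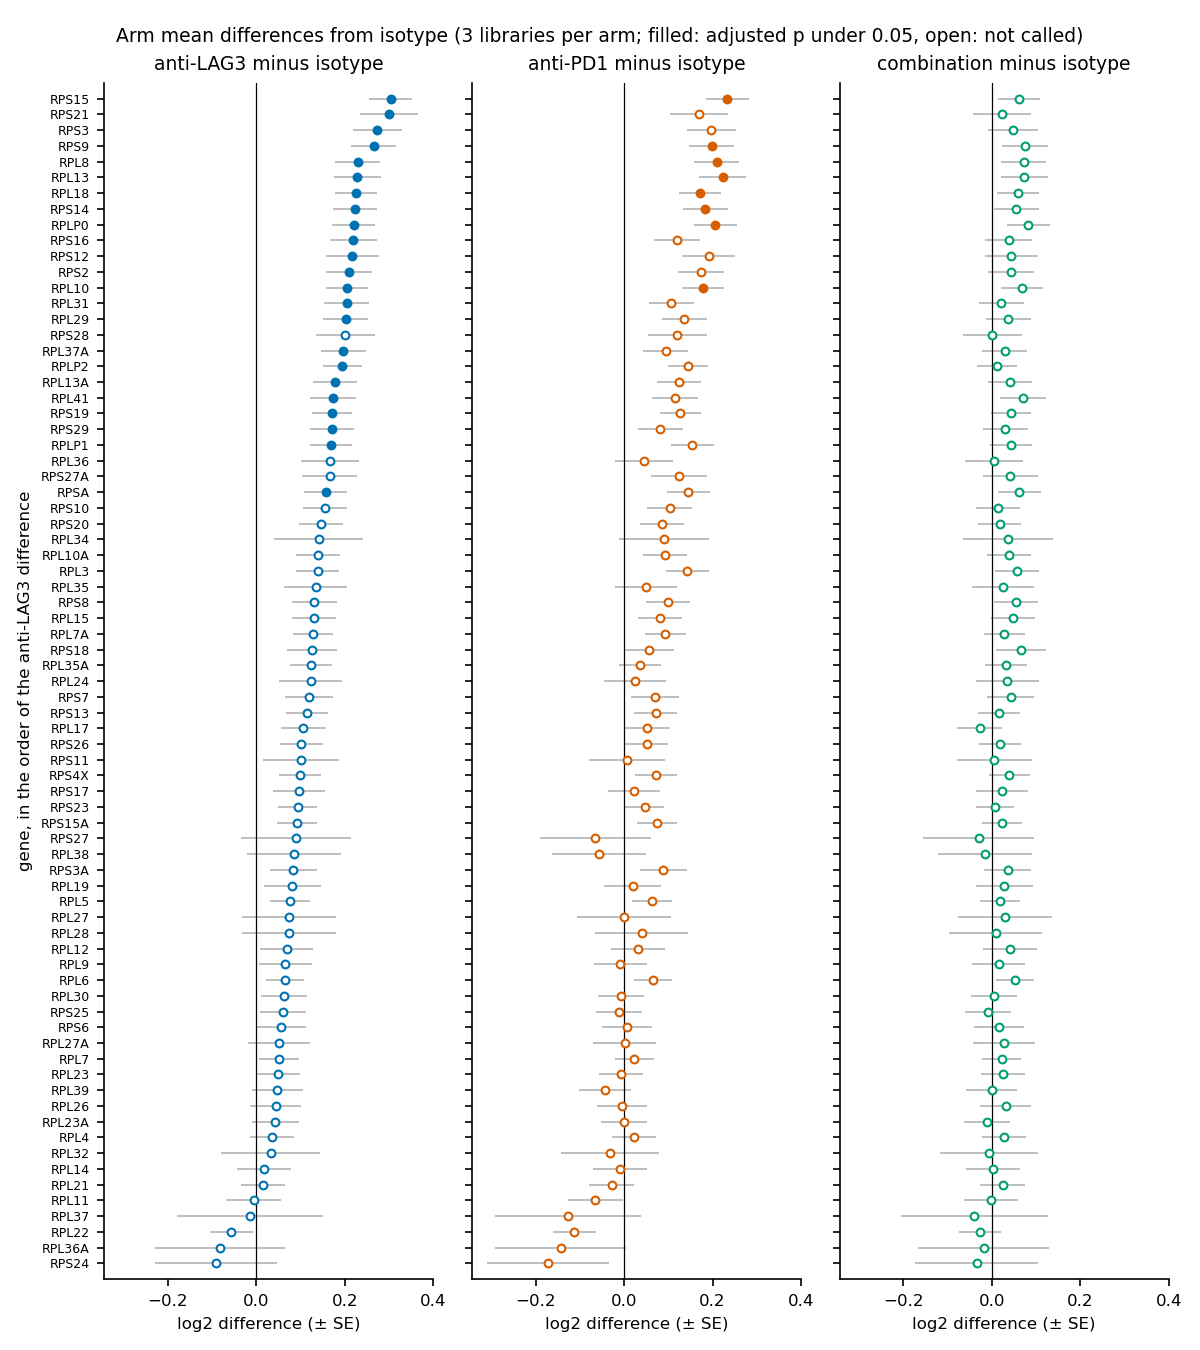
Points give the log2 difference in arm mean from isotype with its standard error, 1 row per gene in the order of the anti-LAG3 difference, for anti-LAG3, anti-PD1 and the combination (3 libraries per arm, the same isotype libraries in all panels), filled where the adjusted p is under 0.05. With a few members not drawn, 23 points are filled in the anti-LAG3 panel, 8 in the anti-PD1 panel and none in the combination panel, and RPL37, RPL36A and RPS24 have the widest errors.

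Without the 2 libraries that stood apart, 49 members rose with anti-LAG3, 23 of them among the 24, against 9.01% of all genes, and RPS21 was no longer called (0.28, adjusted p = 0.129). As those libraries were picked by the members' own values, the larger count is a description only. The rise moved with the base composition of the transcripts: across the members the difference had a correlation of 0.645 with transcript GC content (over genes, which share libraries). Deviations of other genes of like abundance also moved with GC content. At 1, 0.1 and 0.01 µg/ml their correlations were 0.18, 0.16 and 0.67 with anti-LAG3 and -0.19, -0.44 and -0.40 with isotype. They were -0.086, 0.79 and 0.44 with anti-PD1 and -0.25, -0.23 and -0.33 with the combination. What lies behind this was not tested. Of the 39 members with a GC content of 50.3% or more, 21 rose, with a median of 0.18, and of the 38 with 49.7% or less, 3 rose, with a median of 0.080. With a smooth on GC content and length fitted in each library, 3 of the 24 stayed called. With the difference of T and B markers as a covariate none did, although the medians were then 0.13 for the large and 0.21 for the small subunit. The T minus B marker difference was higher in every anti-LAG3 library than in every isotype library, as given above. Single libraries weighed on the count: it was 10 and 5 without the anti-LAG3 libraries at 1 and 0.1 µg/ml, and 42, 6 and 13 when the isotype library at 1, 0.1 or 0.01 µg/ml was left out. Here and in the other comparisons, the share of all genes called is not given for fits without a single library. Nor is it given for fits with the smooth, the marker covariate, another scaling, no filter or DESeq2. Such counts therefore do not show whether a shift is particular to the members.

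With anti-PD1, 9 members rose and none fell, 5 of the large and 4 of the small subunit, against 2.09% of all genes up and 1.73% down. These comparisons share the isotype libraries with those of anti-LAG3. Among the 9 were RPS15, RPS9, RPS14, RPL13, RPL8, RPLP0, RPL10 and RPL18. RPS15 had 876, 911 and 955 CPM at 1, 0.1 and 0.01 µg/ml, all above the isotype range (0.23 ± 0.048, adjusted p = 0.0122). RPL13 had 1622, 1656 and 1823 CPM against 1567, 1414 and 1392 CPM (0.22 ± 0.053, adjusted p = 0.0228). In both of these genes the anti-PD1 library at 0.01 µg/ml, the lowest dose, was the highest of the arm. The same held for RPLP0 with 2884, 2816 and 3051 CPM (0.21 ± 0.049, adjusted p = 0.0219), while RPLP1 and RPLP2 were not called (0.15 and 0.14, adjusted p = 0.0713 and 0.0703).

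The rise was 0.21 in RPL8, 0.20 in RPS9 and 0.18 in RPL10. Of the role genes that were not called, RPS3 (0.20, adjusted p = 0.0516) and RPS2 (0.17, adjusted p = 0.0619) lay nearest to the threshold. RPS6 (0.0065), RPL4 (0.023), RPL5 (0.062) and RPL11 (-0.065) were near 0. The median difference was 0.072 over the members, 0.042 for the large and 0.089 for the small subunit, beside -0.0053 over all genes. In 20 of the 77 genes all anti-PD1 libraries lay above all isotype libraries, against 11.3% of all genes, and in 57 with both outlying libraries dropped, against 19.9%. RPL22 was the 1 member with all of them below, at 855, 823.5 and 838 CPM (-0.11, adjusted p = 0.207), as 11.0% of all genes were. Leaving out the 2 libraries that stood apart, 30 members rose, against 5.99% of all genes, and 22 did so without the isotype library at 1 µg/ml alone. None was called without the anti-PD1 library at 0.01 µg/ml or without either of the isotype libraries at 0.1 and 0.01 µg/ml. The count was 14 and 2 without the anti-PD1 libraries at 1 and 0.1 µg/ml, 5 when the anti-LAG3 library at 1 µg/ml was left out, and 4 and 14 without the combination libraries at 0.1 and 0.01 µg/ml. With the smooth on GC content and length none was called, and all 9 were among the 39 members of higher GC content. With the marker covariate all 9 stayed called, with larger differences, from RPS15 (0.28, adjusted p = 0.0135) to RPL18 (0.21, adjusted p = 0.0422).

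With the combination no member was called against isotype, in edgeR or in DESeq2, and none had an unadjusted p under 0.05. Of all genes 0.00644% were called, and 6.68% had an unadjusted p under 0.05. The largest differences were those of RPLP0 (0.083 ± 0.049, adjusted p = 0.849) and RPS9 (0.075), and the median was 0.029. RPS15 had 838, 830.0 and 769 CPM, which overlaps the isotype range (0.062 ± 0.048), and RPS3 had 2323, 2243.5 and 2052 CPM (0.049 ± 0.056). The median standard error was 0.052, and the smallest member difference called against isotype in any arm was 0.16 (RPSA with anti-LAG3), so differences of the size seen with the combination were not detectable with these libraries. None was called either when the 2 libraries that stood apart were left out, with 16 at an unadjusted p under 0.05, against 0.870% of all genes called, and with medians of 0.063 for the large and 0.069 for the small subunit.

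Set directly against anti-LAG3, 9 members fell in the combination arm and none rose, against 3.14% of all genes down. They included RPS21, RPS15, RPS3, RPS9 and RPS16 of the small subunit and RPL31, RPLP2 and RPL18 of the large. RPS21 had 829, 887 and 781 CPM with the combination and 1093, 1028 and 905 CPM with anti-LAG3, so that every combination library lay below every anti-LAG3 library (-0.28 ± 0.066, adjusted p = 0.0258). The differences were -0.24 ± 0.048, adjusted p = 0.00691 for RPS15 and -0.22 ± 0.056, adjusted p = 0.0226 for RPS3. RPLP2 fell (-0.18 ± 0.045, adjusted p = 0.0198), while RPLP0 (-0.14, adjusted p = 0.0977) and RPLP1 (-0.12, adjusted p = 0.126) were not called. In 23 of the 77 genes, 12 large and 11 small, all combination libraries lay below all anti-LAG3 libraries, against 12.6% of all genes, and in 31 with both outlying libraries dropped, against 21.0%. There were 22 that fell when both libraries that stood apart were left out, against 6.28% of all genes, and 8 of the 22 were among the 9. No call was left with the smooth on GC content and length, where the differences were smaller (RPS15 at -0.097, RPS3 at -0.15). None was left with the marker covariate either, where the differences of all 9 were larger (RPS15 at -0.34, adjusted p = 0.105, RPS3 at -0.32, adjusted p = 0.185). None was called without the anti-LAG3 or the combination library at 0.1 µg/ml. The count was 1 without the anti-LAG3 library at 1 µg/ml, 3 without the combination library at 0.01 µg/ml, 26, 5 and 14 when the isotype library at 1, 0.1 or 0.01 µg/ml was left out, and 16 when the anti-PD1 library at 0.01 µg/ml was.

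Against anti-PD1 the combination showed no called member in edgeR, where 0.354% of all genes were called. At an unadjusted p under 0.05 there were 15 members, all lower, beside 14% of all genes in either direction. DESeq2 called 1. RPS15 was the lowest (-0.17 ± 0.048, adjusted p = 0.0958), and RPS24 the highest (0.14, adjusted p = 0.726). Without the 2 libraries, and without the isotype library at 1 µg/ml alone, 2 members fell, against 1.90% of all genes in the former. Without the anti-PD1 library at 0.01 µg/ml the median turned from -0.043 to 0.015.

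Dose was examined as a slope, the log2 change per 10-fold rise in dose. In the isotype arm itself 14 members rose with dose and none fell, against 0.740% of all genes up. They were 11 of the large subunit and 3 of the small, led by RPL37 (0.29 ± 0.036, adjusted p = 0.000223), RPS27 (0.23 ± 0.038, adjusted p = 0.00462), RPL28 (0.23 ± 0.035, adjusted p = 0.00155) and RPS24 (0.22 ± 0.044, adjusted p = 0.0285), and RPL11 was also among them (0.15 ± 0.035, adjusted p = 0.044). RPL37 had 861, 653 and 579 CPM at 1, 0.1 and 0.01 µg/ml of isotype. RPL28 had 1296, 989 and 944 CPM. In both the library at 1 µg/ml is far above the other two, which is the library that stood apart. Without it no isotype slope was called, with 1 member at an unadjusted p under 0.05, and without both libraries none was called and 0% of all genes. The count was 9 without the isotype library at 0.01 µg/ml and 8 without any 1 of the anti-LAG3 libraries, which enter only the shared estimate of the spread.

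The combination's slope differed from the isotype slope in 20 members. It was lower in 17, 13 of the large subunit and 4 of the small, against 2.80% of all genes, and higher in 3, against 1.83%. RPL37 had 608, 627.5 and 782 CPM with the combination at 1, 0.1 and 0.01 µg/ml, so it ran down with dose where isotype ran up, a slope difference of -0.47 ± 0.051, adjusted p = 1.58e-06. RPS24 (-0.39 ± 0.063, adjusted p = 0.00168), RPS27 (-0.34 ± 0.054, adjusted p = 0.00039) and RPL32 (-0.32 ± 0.052, adjusted p = 0.000426) followed, and RPL11 was among the 17 (-0.19). The 3 that were higher were RPL34, with 539, 506 and 439 CPM against 428, 506 and 509.8 CPM (0.27 ± 0.050, adjusted p = 0.00122), RPS27A, with 1031, 975 and 862 CPM against 863, 959 and 959 CPM (0.20 ± 0.048, adjusted p = 0.0129), and RPS12 (0.20 ± 0.047, adjusted p = 0.0144). All of these contrasts contain the libraries that stood apart, which give the isotype series its value at 1 µg/ml and the combination its value at 0.01 µg/ml. Scaled by library totals the split was 7 higher and 17 lower, and with the smooth on GC content and length 10 and 17. Without the isotype library none was called, without the combination library at 0.01 µg/ml 1, and without that at 1 µg/ml 12. Without both libraries that stood apart no member was called, with 2 at an unadjusted p under 0.05, against 0.184% of all genes called, RPL37 was at -0.21 (adjusted p = 0.973) and the median of the large subunit turned from -0.092 to 0.038. RPL11 turned from -0.19 to 0.0355 (adjusted p = 1). The combination's own slope, tested against 0, was called in 6 members (RPL34, RPS12, RPS27A and RPL10 up, RPL37 and RPS24 down), against 4.27% of all genes. Without both libraries it was called in none, with 3 at an unadjusted p under 0.05, against 0.660% of all genes.

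For anti-PD1 the slope was lower than the isotype slope in 9 members, 7 of the large subunit and 2 of the small, and higher in none, against 0.180% of all genes down. RPL37 (-0.29 ± 0.051, adjusted p = 0.00769), RPL27 (-0.29 ± 0.052, adjusted p = 0.0104) and RPL28 (-0.27 ± 0.050, adjusted p = 0.0125) were among those with the largest differences. RPL27 had 927, 929.9 and 1053 CPM with anti-PD1 and 1137, 908 and 870.4 CPM with isotype. The anti-PD1 values run down with dose and the isotype values up. Tested against 0, no anti-PD1 slope was called (0.206% of all genes). At an unadjusted p under 0.05 there were 13 members, all negative, beside 5.37% of all genes in either direction. Of the 77 slopes 75 were below 0, with a median of -0.043. In the fit without both outlying libraries none of these was called either, with 11 at an unadjusted p under 0.05 (0.140% of all genes called). Against the isotype slope no member was then called, with 3 members at an unadjusted p under 0.05, and 0% of all genes were called. RPL37 was then at -0.18. None was called either without the isotype library at 1 µg/ml or without the anti-PD1 library at 1 or at 0.01 µg/ml, 5 were without any 1 of the anti-LAG3 libraries, and 14 without the isotype library at 0.1 µg/ml.

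For anti-LAG3 no slope was called against the isotype slope in edgeR or DESeq2, and edgeR called 0.0708% of all genes. In edgeR 14 members had an unadjusted p under 0.05 (6 higher, 8 lower), beside 7.99% of all genes. Without both outlying libraries none was called, with 1 at an unadjusted p under 0.05, against 0.00635% of all genes. The anti-LAG3 arm's own slope was above 0 in all 77 members, with a median of 0.068 beside 0.0023 over all genes. None of the 77 passed the test against 0 (0.180% of all genes did), and RPL37 was nearest (0.15 ± 0.036, adjusted p = 0.0869). At an unadjusted p under 0.05 there were 36 members, beside 7.25% of all genes in either direction. Without the 2 libraries none passed, with 39 at an unadjusted p under 0.05, against 0.152% of all genes called, and 76 of 77 slopes were above 0. RPS21 with 1093, 1028 and 905 CPM and RPS3 with 2719, 2609 and 2407 CPM were highest at 1 µg/ml and lowest at 0.01 µg/ml, while RPS15 with 948, 1006 and 928.5 CPM was highest at 0.1 µg/ml (slope 0.015 ± 0.033). Whether the arms' own slopes differ from one another was not tested except against isotype.

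**Figure D5:**
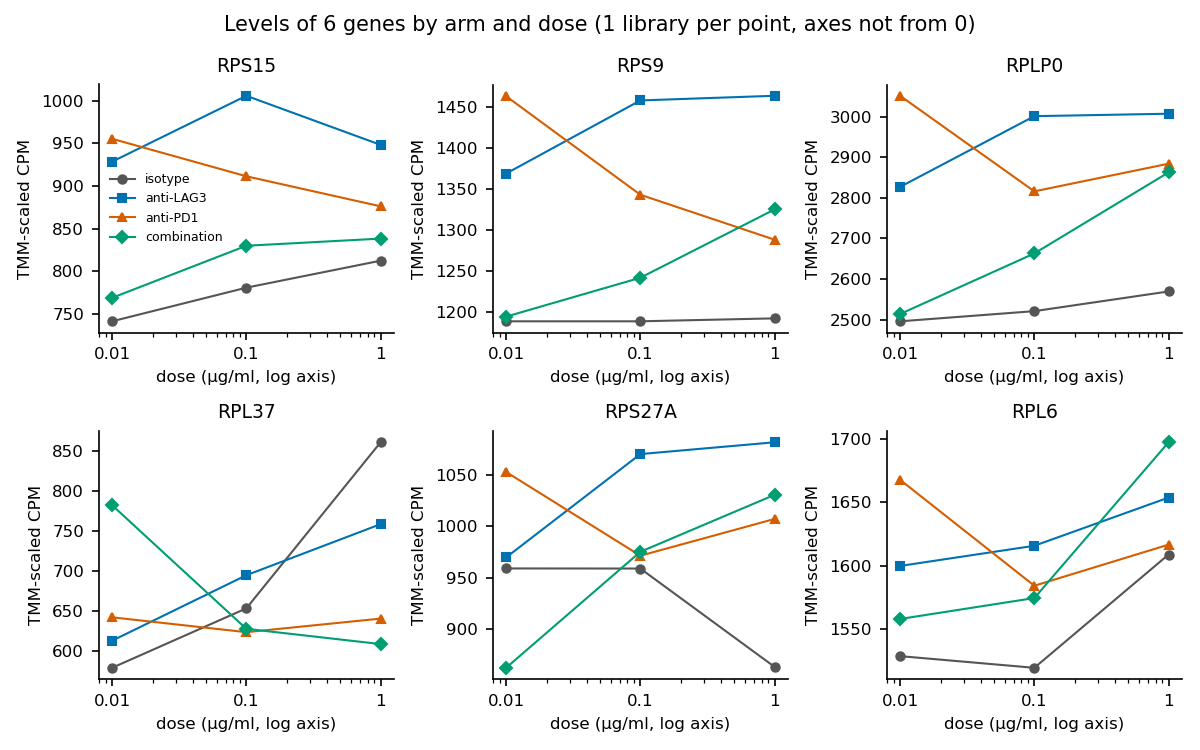
TMM-scaled CPM of 6 genes against dose on a log axis, 1 library per point and 1 line per arm. RPS15, RPS9 and RPLP0 lie higher with anti-LAG3 and anti-PD1 than with isotype at each dose, RPL37 and RPS27A show the outlying isotype point at 1 µg/ml and combination point at 0.01 µg/ml, and RPL6 is the steadiest member.

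The authors' deposited tables, each of 1 treated library against all 3 isotype libraries, give values dose by dose. In them a dose and its library cannot be told apart, and the genes with an adjusted p number from 5117 to 15082, so counts are not on 1 footing across tables. In the authors' deposited table of anti-LAG3 at 1 µg/ml 10 members had an adjusted p under 0.05, all up. Of the 8368 genes with an adjusted p there, 2.58% were called in either direction and 86 were up. At 0.1 µg/ml the authors' deposited table has 8 members called, all up. Of its 6557 genes, 2.84% were called in either direction and 43 were up. The shares that follow are also for either direction. At 0.01 µg/ml the authors' deposited table has none, against 0.195%, with 11 members at an unadjusted p under 0.05. For anti-PD1 the authors' deposited tables have none at 1 µg/ml (0.443% of genes, 7 members at an unadjusted p under 0.05) and none at 0.1 µg/ml (0% of genes, 7 members). At 0.01 µg/ml the authors' deposited table has 9, all up, against 1.45% of 5669 genes in either direction, with 39 up. For the combination they have none at 1 µg/ml (1.73% of genes, 7 members at an unadjusted p under 0.05), none at 0.1 µg/ml (0.199%, 0 members) and none at 0.01 µg/ml (0%, 0 members). RPS21 was the largest of anti-LAG3 at 1 µg/ml in the authors' deposited table (0.41 ± 0.076, adjusted p = 2.00e-05) and RPS15 at 0.1 µg/ml (0.37 ± 0.084, adjusted p = 0.00189). The median over the members in the authors' deposited tables was 0.17, 0.14 and 0.043 for anti-LAG3 and 0.057, 0.013 and 0.15 for anti-PD1 at 1, 0.1 and 0.01 µg/ml.

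Other genes of the ribosome and of translation were taken from lists that do not overlap the members. These lists were not counted in the fits with the smooth on GC content and length or with the marker covariate. Whether their calls stay in those fits was therefore not examined. The mitochondrial ribosomal proteins, which serve the ribosome inside the organelle, had 12 of 78 up with anti-LAG3 and none down, against 4.88 and 5.16% of all genes, and 5 up and none down with anti-PD1, against 2.09 and 1.73% (medians 0.098 and 0.048). They were led by MRPL38 (0.51 ± 0.084, adjusted p = 0.00097) and MRPL41 (0.43 ± 0.054, adjusted p = 0.000467) with anti-LAG3, and by MRPL12 (0.38 ± 0.083, adjusted p = 0.0253) and MRPL38 (0.35 ± 0.085, adjusted p = 0.0231) with anti-PD1. Against anti-LAG3 the combination had 7 of the 78 down, against 3.14% of all genes, MRPL38 furthest (-0.43 ± 0.084, adjusted p = 0.00624). These counts were 32, 17 and 19 without the 2 libraries that stood apart, where 9.01, 5.99 and 6.28% of all genes were called in those directions. Among 40 genes of ribosome biogenesis, the nucleolar machinery that assembles the subunits, 9 fell and 2 rose with anti-LAG3 (median -0.055), against 5.16 and 4.88% of all genes, and 4 fell with anti-PD1, against 1.73%. Without the 2 libraries 10 fell and 5 rose with anti-LAG3, against 7.50 and 9.01% of all genes. The fallers with anti-LAG3 include NCL, UBTF and NOLC1, and the 2 that rose were BOP1 and RRP9. The 15 elongation factor and other mRNAs known to carry a TOP start had none called in edgeR with anti-LAG3 or anti-PD1 (DESeq2 was not counted for this list). At an unadjusted p under 0.05 there were 4 and 2 of the 15, beside 24.7 and 18.4% of all genes. In the fit without both outlying libraries 3 of the 15 rose with each antibody, against 9.01 and 5.99% of all genes.

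Of 29 initiation factors 2 rose and 2 fell with anti-LAG3, near the 4.88 and 5.16% of all genes, and 5 rose and 2 fell without the 2 libraries (9.01 and 7.50% of all genes). EIF5B, which joins the subunits, fell with anti-LAG3 (-0.29 ± 0.051, adjusted p = 0.00151) and anti-PD1 (-0.29 ± 0.051, adjusted p = 0.00555), and was higher in the combination than with anti-PD1 (0.27 ± 0.051, adjusted p = 0.0234). Of 17 genes that carry growth signals to these mRNAs, 2 rose and 2 fell with anti-LAG3, against 4.88 and 5.16% of all genes (median -0.033). With anti-PD1 1 rose and 2 fell, against 2.09 and 1.73% (median 0.025). Without the 2 libraries 4 rose and 2 fell with anti-LAG3, against 9.01 and 7.50%. Among the 17, LARP1, which binds the pyrimidine start, fell with anti-LAG3 (-0.31 ± 0.053, adjusted p = 0.00151) and with anti-PD1 (-0.23 ± 0.053, adjusted p = 0.0231). DDIT4, an inhibitor of mTOR, rose with both (0.32 ± 0.071, adjusted p = 0.00614 and 0.31 ± 0.072, adjusted p = 0.0211). In the list of 6 genes of the 5S checkpoint, MDM2 alone was called with anti-LAG3, and fell (-0.20 ± 0.042, adjusted p = 0.00546). With the paralogs, RPL39L rose and RPL7L1 fell with anti-LAG3, and RPL39L was lower in the combination than with anti-LAG3 (-0.38 ± 0.081, adjusted p = 0.0126). Of 12 noncoding hosts of small nucleolar RNAs, 1 rose and 3 fell with anti-LAG3, against 4.88 and 5.16% of all genes. Without the 2 libraries 2 rose and 5 fell, against 9.01 and 7.50% of all genes.

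FAU and RACK1, ribosomal proteins that go by other names, were called in the dose slopes. Both rose with isotype dose, FAU by 0.19 ± 0.035, adjusted p = 0.0106 and RACK1 by 0.17 ± 0.037, adjusted p = 0.0316, and both had a lower slope with the combination, FAU at -0.25 ± 0.050, adjusted p = 0.00268. Neither was called in edgeR, or had an unadjusted p under 0.05, in a comparison of arm means. Without the 2 libraries that stood apart neither slope was called, and both genes rose with anti-LAG3 and with anti-PD1. EIF4EBP1, a repressor of cap-dependent translation, had the lowest slope with the combination against isotype of all genes in these lists (-0.88 ± 0.15, adjusted p = 0.000571), and MRPL55 followed (-0.40 ± 0.084, adjusted p = 0.0046). In the isotype arm MRPL55 (0.27 ± 0.058, adjusted p = 0.023) and MRPL11 (0.21 ± 0.041, adjusted p = 0.0137) rose with dose. No gene of these lists had a called slope against isotype, or with isotype dose, when both libraries were left out.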

How the data were processed

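RNA from 12 co-culture libraries was analysed, grouped by the treatment label into 4 arms of 3 doses with 1 library per condition. The authors deposited raw read counts per gene symbol with a gene length, neither normalised, and for each treated library a table of log2 fold changes, standard errors, p-values and adjusted p-values against the 3 isotype libraries, per the file headers. Tools named in the submitters' processing notes are STAR 2.5.2b, Trimmomatic 0.36, Subread 1.5.2 with featureCounts, and DESeq2, with the build GRCh38. How reads were assigned to strands, to which annotation, and how multiply mapped reads were handled is not given in the sources used here. Labels disagree on the RNA, polyA as molecule and total RNA in the extraction text. Not used were 4 count columns and 36 per-sample columns that match no sample by name or repeat the counts in another scale.

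In R 4.3.3, edgeR 4.0.16 (filterByExpr by arm with a minimum count of 10, TMM, robust quasi-likelihood F test) was fitted to all 15535 genes with arm and dose as factors (6 residual degrees of freedom), and with a slope on log10 dose per arm centred at 0.1 µg/ml (4 residual degrees of freedom). Benjamini-Hochberg adjustment ran over all genes, and an adjusted p under 0.05 was called. Every adjusted p in the text is from edgeR unless the authors' deposited table is named. For fits with libraries left out and for the authors' deposited tables, the share of all genes at an unadjusted p was not counted. Shares of genes called at an adjusted p are no match for member counts at an unadjusted p. Log2 CPM used a prior count of 2. GC content came from GENCODE v29 transcripts and covered 88.2% of genes tested and all 77 members. Alternatives were DESeq2 1.42.0, other scalings, no filter, offsets for length and GC content (mgcv 1.9.3), a marker covariate and leaving out libraries. Leaving out 2 libraries together, and transcript in place of deposited lengths for TPM, were chosen after seeing the data. The scripts were tested on simulated data.

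The members, lists and comparisons were chosen with earlier results of these data known. Genes were named by these rules: in each comparison the 4 called members with the largest rise and the 4 with the largest fall, a list of members with known roles, the 4 highest and lowest in TPM, the 4 most and least variable, and in the other lists the 2 called genes with the largest value. A few genes that these rules pick are not reported here by name, but stand in the counts. Further genes are named as the full membership of a count, and the start regions shown were chosen after their values were seen. The lowest count of a member in a library was 2793.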

Additional observations from a re-analysis of the deposited data

Results flagged for a closer look

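The dose slope differed between the combination and isotype arms in 20 of the 77 ribosomal protein genes, by a test of the difference itself, against 4.63% of all genes. RPL37 had the largest difference (-0.47 ± 0.051 on the log2 scale per 10-fold dose), with 608, 627.5 and 782 CPM at 1, 0.1 and 0.01 µg/ml of the combination and 861, 653 and 579 CPM of isotype. The dose slope differed between the anti-PD1 and isotype arms in 9 genes, by the same kind of test, against 0.264% of all genes. RPL37 was first among the 9 (-0.29 ± 0.051). Both counts were 0 without the isotype library at 1 µg/ml. Without the combination library at 0.01 µg/ml, the count for the combination fell from 20 to 1. What made these libraries stand apart was not tested.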

How the results depend on the processing

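No paired analysis was possible because the labels give no replicate numbers, other than matching the arms by dose, which the arm model does with dose as a factor. Without that term the counts were 24, 8 and 8 for anti-LAG3 and anti-PD1 against isotype and the combination against anti-LAG3. Of 40 called results of named members, 1 changed direction under an alternative, the RPL11 slope of the combination against isotype, which was 0.0355 without the isotype library at 1 µg/ml and the combination library at 0.01 µg/ml together. In that fit 18 others were no longer called. Counts of called members that moved are given by comparison, with the range over leaving out each library in turn. The shares of all genes called under these alternatives are not given beside them, so a shift may not be particular to the members. Anti-LAG3 against isotype (24) gave 37 with no filter on low counts, 0 with the marker covariate, 12 with a length offset, 3 with a GC and length offset, 49 without the 2 libraries, and 5 to 42 leaving out 1. Anti-PD1 against isotype (9) gave 16 in DESeq2, 18 with no filter, 0 with the GC and length offset, 30 without the 2 libraries, and 0 to 22. The combination against anti-LAG3 (9) gave 15 in DESeq2, 15 by library totals, 28 with no filter, 0 with the marker covariate, 0 with the GC and length offset, 22 without the 2 libraries, and 0 to 26. The combination against anti-PD1 (0) gave 1 in DESeq2, 4 with no filter, 2 without the 2 libraries, and 0 to 2, and against isotype it gave 0 throughout. The anti-LAG3 slope (0) gave 2 with no filter, 8 with the marker covariate, 1 with the length offset, 1 with the GC and length offset, and 0 to 2. The anti-PD1 slope (9) gave 18 in DESeq2, 27 with no filter, 45 with the marker covariate, 0 tested against 0, 0 without the 2 libraries, and 0 to 14. The combination slope (20) gave 6 tested against 0, 0 without the 2 libraries, and 0 to 23. The isotype slope (14) gave 7 by library totals, 31 with no filter, 37 with the marker covariate, 8 with the length offset, 0 without the 2 libraries, and 0 to 21. Without mitochondrial genes in the total, the summed share moved to 10.39% for anti-PD1 and 10.09% for the combination. With 1 library left out, that arm's slope rests on 2 libraries and is assumed to vary like the others. Except where fewer libraries were fitted, the cause was not tested.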
